A study of Mus musculus with 12 samples.

Results

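The interleukin-1 (IL-1) family was followed here through 8 genes measured in the mouse retina. They were chosen by name, with earlier results of these data known, from the families of ligands, antagonist and receptors. The 8 were Il1a, Il1b, Il18 and Il33 (ligands), Il1rn (the secreted antagonist), and Il1r1, Il1rap and Il1rl1 (receptor chains). They are 8 of the 24340 rows of the expression table, and all 8 were above 0 in at least 1 library and were tested. Both retinas of 6 p16-3MR mice, 12 to 16 weeks old, were sequenced on day 3, which gave 4 groups of 3 libraries. Every mouse, controls included, carried the p16-3MR transgene, which places Renilla luciferase, a red fluorescent protein and a viral thymidine kinase under the regulatory region of p16Ink4a. A single eye of every mouse was kept for 60 min at an intraocular pressure (IOP) between 85 and 90 mm Hg, with the fellow eye as control. Mice 1, 2 and 5 received ganciclovir (GCV), which the viral kinase turns toxic in cells that express the transgene, at 25 mg/kg once a day (groups control GCV and IOP GCV). Mice 3, 4 and 6 were sham-treated with PBS (groups control and IOP). Pressure of this height is known to impede retinal blood flow, so the model is one of acute injury. Each library is a whole retina, and in such bulk tissue fewer cells of a type and less RNA per cell cannot be told apart.

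IL-1α and IL-1β bind the receptor IL-1R1, which then recruits the accessory chain IL-1RAcP (the product of Il1rap) and signals through MyD88, IRAK kinases and NF-κB. The antagonist IL-1Ra (Il1rn) occupies IL-1R1 without recruiting the accessory chain. IL-33 signals through ST2 (Il1rl1) and the same accessory chain, while IL-18 has receptor chains of its own. IL-1β and IL-18 are made as precursors that caspase-1 cuts in inflammasomes, whereas IL-33 and IL-1α can act as alarm signals from damaged cells. In the retina IL-33 is known from Müller glia, and IL-1β is known mainly from microglia and infiltrating myeloid cells.

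All values are FPKM (fragments per kilobase of transcript, scaled to the size of the library), so that levels can be compared between genes. Estimated depth was 3990000 to 9010000 fragments per library, lowest in the IOP retina of mouse 6, which also had the fewest genes above 0 (14844, against 16044 to 16593 in the others). Rod marker genes summed to 37037 to 53190 FPKM in control retinas and 28600 to 45536 FPKM in IOP retinas, as the label retina implies. Of 5 ganglion cell markers 4 were called lower after IOP elevation. Their sum in the IOP retina of mouse 4 (680.7 FPKM) was within the range of control retinas (619.1 to 1233 FPKM), while the other 5 IOP retinas held 152.3 to 507.6 FPKM. Without that retina 2490 genes were called in the response without GCV, against 306 with it. Over the 6 pairs 4515 genes were called without it, against 2258 of 18509 with it. Among those 4515 were 3 members (Il1b, Il1rn and Il33). Cdkn2a, the gene of p16Ink4a, lay at 0 to 0.601 FPKM, so that the cells which GCV targets could not be followed at this depth. The IOP libraries without GCV varied more among themselves than the other groups (median SD of 0.343 per gene on the log2 scale, against 0.119 to 0.199).

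The clearest response was that of Il1b, whose promoter is shown here together with that of Il1rn, the member whose levels ran most like it across the 12 libraries. Il1b lies on chromosome 2 at 129364569 to 129371164 (minus strand in the promoter table), and Il1a lies beside it at 129299609 to 129310186, with 54382 bases between the genes. Il1rn lies farther off on the same chromosome, at 24336860 to 24351491, and has 3 annotated starts, of which the second is shown. The coordinates and sequences are those of RefSeq on GRCm38.p6, the same build as mm10. All 8 members had a promoter entry. The 250 bases before the transcript start in the promoter table are given 5′ to 3′ (for Il1b that start lies inside the gene as delimited above, so that 25 of the bases overlap it), and capitals mark matches to a C/EBP motif (TTNNGNAA) or a TATA box (TATAAA).
Il1b, chr2:129371140-129371389, minus strand: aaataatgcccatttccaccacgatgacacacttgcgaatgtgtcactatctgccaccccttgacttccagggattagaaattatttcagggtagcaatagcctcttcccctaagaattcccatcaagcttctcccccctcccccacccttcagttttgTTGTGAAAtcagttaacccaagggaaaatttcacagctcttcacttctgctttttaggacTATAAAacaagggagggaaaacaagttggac
Il1rn, chr2:24345041-24345290, plus strand: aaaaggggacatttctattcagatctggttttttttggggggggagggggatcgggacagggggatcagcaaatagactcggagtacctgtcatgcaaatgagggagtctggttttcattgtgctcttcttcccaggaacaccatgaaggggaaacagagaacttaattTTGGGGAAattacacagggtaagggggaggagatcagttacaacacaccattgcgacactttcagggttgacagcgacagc

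Both strands were searched for these motifs and for NF-κB (GGGNNNNNCC), AP-1 (TGANTCA) and PU.1 (GAGGAA). Il1b held a C/EBP match at positions -91 to -84 and a TATA box at -31 to -26 relative to the start. In the Il1rn window there was 1 C/EBP match, at -81 to -74, and it had no TATA box. Neither of these 2 windows held a match to the NF-κB, AP-1 or PU.1 letters, and the matches shown did not overlap each other. The windows of the other Il1rn starts did: that of the first held 1 NF-κB match and 1 AP-1 match, and that of the third held 1 NF-κB match and 3 C/EBP matches, of which a pair overlapped. Of 32536 promoter windows of the same length, 36.8% held the C/EBP letters, 12.3% the TATA box, 46% the NF-κB letters, 6.73% the AP-1 letters and 23.4% the PU.1 letters, so the matches are common and are given as a description.

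In control retinas the 8 members spanned from Il33, at 28.9 ± 2.02 FPKM (SD, n = 6), to Il1rl1, at 0.0920 ± 0.0520 FPKM. Between them came Il18 (7.02 ± 2.13), Il1rap (2.79 ± 0.299), Il1r1 (1.42 ± 0.276), Il1rn (0.645 ± 0.710), Il1b (0.267 ± 0.239) and Il1a (0.233 ± 0.147 FPKM). The ranges of the first 4 genes in this order did not overlap, from 27.2 to 32.3 FPKM for Il33 down to 1.13 to 1.86 FPKM for Il1r1. From Il1r1 downwards the ranges of neighbours in the order overlapped, and Il1rn, Il1b and Il1a did not differ beyond their spread. In IOP retinas Il33 was still the highest member by its mean, at 34.4 ± 4.13 FPKM, although Il1rn and Il1b exceeded it in the IOP retina of mouse 5. Il1rn (11.04 ± 17.2) and Il1b (10.4 ± 14.7) came next by their means, with SDs larger than the means, ahead of Il18 (10.2 ± 3.81), Il1rap (3.11 ± 0.744), Il1r1 (2.08 ± 0.840) and Il1a (1.31 ± 1.63 FPKM). These 3 highest means after Il33 did not differ beyond their spread, and by the median over the 6 IOP retinas the order was Il18 (9.01), Il1b (5.29) and Il1rn (3.47 FPKM).

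**Figure D1:**
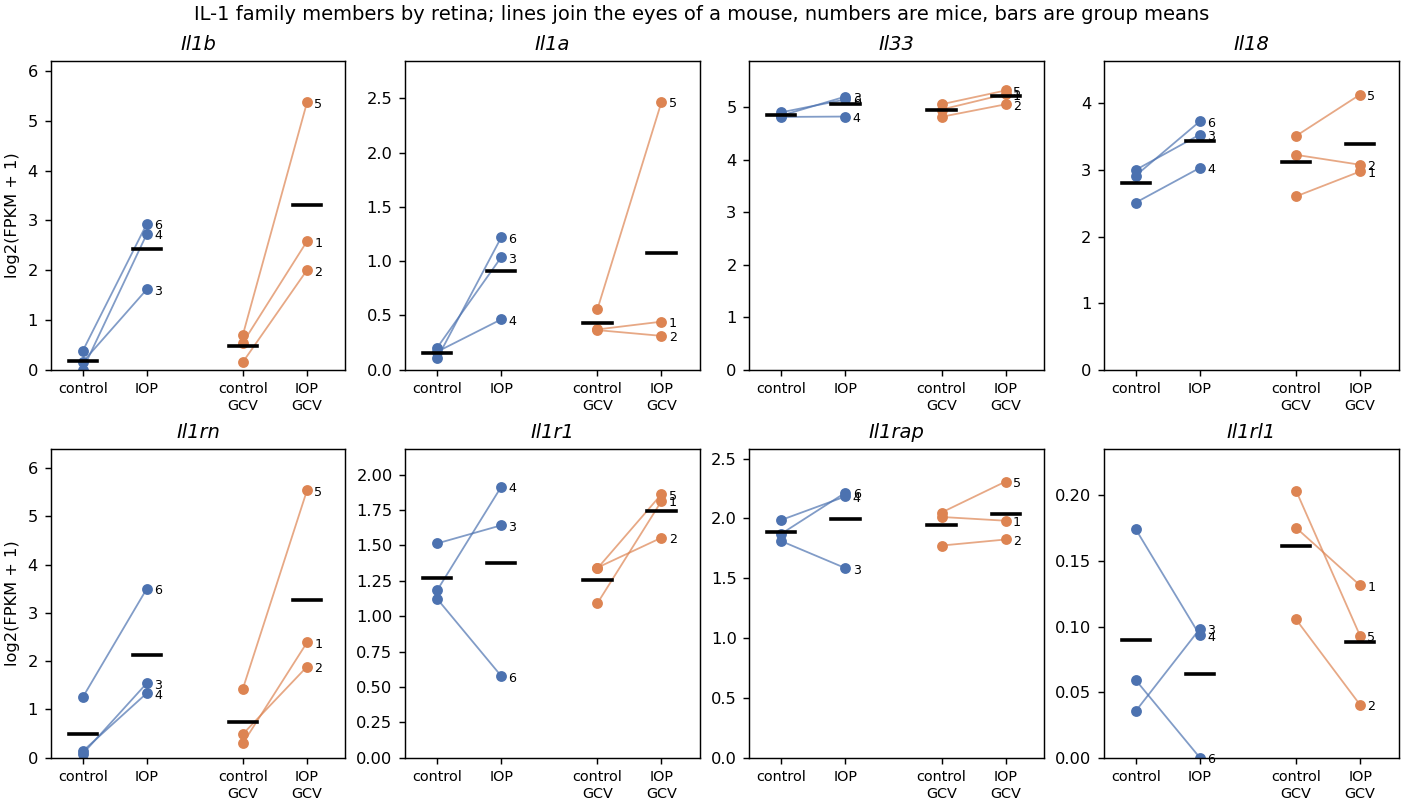
Level of each member in every retina on a log2(FPKM + 1) axis that starts at 0 and has its own scale in each panel. Lines join the eyes of a mouse, numbers give the mouse, black bars are group means of 3 retinas, and blue and orange mark mice without and with GCV. Il1b rose in all 6 mice, Il33 sat high in every retina, and Il1rl1 was at most 0.152 FPKM.

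Il1b, the precursor of IL-1β, was close to absent in control retinas and present in every IOP retina. It was at 0.111, 0 and 0.296 FPKM in the control retinas of mice 3, 4 and 6, and at 2.06, 5.61 and 6.62 FPKM in their IOP retinas. In the GCV mice 1, 2 and 5 the control retinas held 0.455, 0.112 and 0.627 FPKM, and the IOP retinas 4.98, 3.00 and 40.3 FPKM. The lowest IOP retina lay above the highest control retina, and the IOP retina of mouse 5 stood far above the other 5. Over the 6 eye pairs the difference was 2.55 ± 0.51 (SE) on the log2(FPKM + 1) scale, with a 95% interval of 1.42 to 3.67 (adjusted p = 0.0137, limma). This fit took the retinas as unpaired, as did every fit given here in which the mouse is not named as a block. With the mouse as a block the interval was 1.57 to 3.53. Because 1 FPKM was added to each value, this scale understates the change of a gene that low. In the unpaired fit Il1b was the only member called. Of the 18509 genes tested, 6.76% were called higher and 5.44% lower in that fit. With the mouse as a block Il1rn was called as well, where 4.83% of genes were called higher. All 6 IOP retinas lying above the 6 control retinas was seen for 5.47% of genes.

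The control values of Il1b rest on an estimated 0 to 5.09 fragments per retina and the IOP values on 19.4 to 419, taking the length of its transcript as 1356 bases less the 160 subtracted in the estimate of depth. The call held in each fit that left out 1 retina (adjusted p = 0.00140 to 0.0404), and without both retinas of mouse 5 the difference was 2.09 (adjusted p = 0.00460). It was lost without both retinas of mouse 6 (2.47, adjusted p = 0.0590). With the mouse as a block the adjusted p was 0.0242, and leaving out 1 mouse from that fit gave 0.0187 to 0.0754, with the call lost without mouse 1 (0.0534), mouse 3 (0.0682) or mouse 6.

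Il1rn, which encodes the antagonist, was higher in the same retinas as Il1b. It was at 0.0573, 0.0978 and 1.38 FPKM in the control retinas of mice 3, 4 and 6, and at 1.92, 1.53 and 10.3 FPKM in their IOP retinas. With GCV the control retinas of mice 1, 2 and 5 held 0.231, 0.405 and 1.70 FPKM, and the IOP retinas 4.24, 2.70 and 45.5 FPKM. The IOP retina was higher in 6 of 6 pairs, but the groups overlapped: the control retinas of mice 5 and 6 were near or above the lowest IOP values. The difference over the 6 pairs was 2.09 ± 0.64 (95% interval 0.67 to 3.498) and missed the threshold when the retinas were taken as unpaired (adjusted p = 0.0572). Among the unpaired fits without 1 retina it passed without the IOP retina of mouse 4 (adjusted p = 0.0367) or of mouse 2 (0.0396). With the mouse as a block it passed (adjusted p = 0.0303), where 4.83% of all genes were called higher. A higher IOP retina in all 6 pairs was seen for 10.7% of genes. In the blocked fit without each mouse in turn, the adjusted p of Il1rn ran from 0.0250 (without mouse 5) to 0.101 (without mouse 3).

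The ratio of antagonist to ligand spanned a narrower range in IOP than in control retinas. The level of Il1rn divided by that of Il1b was 0.932, 0.272 and 1.56 in the IOP retinas of mice 3, 4 and 6, and 0.851, 0.900 and 1.13 in those of mice 1, 2 and 5. In control retinas it ranged from 0.507 to 4.66, and it could not be formed in mouse 4, where Il1b was listed at 0. The control ratios rest on few fragments and the 2 sets were not tested against each other.

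Il1a, the other ligand of IL-1R1, was low throughout. Its control retinas held 0.151, 0.121 and 0.0747 FPKM in mice 3, 4 and 6, and the IOP retinas 1.052, 0.379 and 1.33 FPKM. In mice 1, 2 and 5 the control retinas were at 0.293, 0.287 and 0.471 FPKM and the IOP retinas at 0.359, 0.241 and 4.53 FPKM. All 3 mice without GCV had the higher value in the IOP eye, while among the GCV mice only mouse 5 stood well above its control eye. The difference of 0.70 ± 0.33 over 6 pairs was not called (adjusted p = 0.184), and without the IOP retina of mouse 5 it was 0.35 (adjusted p = 0.126). The control values rested on an estimated 1.17 to 5.80 fragments.

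Il33, the nuclear alarm cytokine, was the most abundant member and had the smallest SD relative to its mean. Its level was 27.7, 27.2 and 29.0 FPKM in the control retinas of mice 3, 4 and 6, and 35.9, 27.4 and 34.5 FPKM in their IOP retinas. It was 30.1, 27.3 and 32.3 FPKM in the control retinas of mice 1, 2 and 5, and 37.1, 32.3 and 39.0 FPKM in their IOP retinas. All 6 pairs had the higher value in the IOP eye, though by very little in mouse 4, and the groups overlapped. The difference of 0.24 ± 0.08 (95% interval 0.05 to 0.42) was not called (adjusted p = 0.0863), and among the fits without 1 retina it was called only without the IOP retina of mouse 4 (0.29, adjusted p = 0.0152). With an estimated 328 to 810 fragments per retina over both arms, Il33 is the member whose level is best measured. Per unit length there were 51.6 to 249.5 times as many Il33 as Il1b fragments in the control retinas where Il1b was above 0, and 0.969 to 17.5 times as many in IOP retinas, lowest in mouse 5.

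Il18, the other caspase-1 substrate, was already expressed in control retinas, at 7.02, 4.70 and 6.55 FPKM in mice 3, 4 and 6 and at 5.08, 8.37 and 10.4 FPKM in mice 1, 2 and 5. The IOP retinas held 10.6, 7.18 and 12.3 FPKM in mice 3, 4 and 6 and 6.88, 7.45 and 16.6 FPKM in mice 1, 2 and 5. It was higher in the IOP eye of 5 mice and lower in that of mouse 2, and the arms overlapped widely. The difference was 0.45 ± 0.24 and was not called (adjusted p = 0.237), and without the IOP retina of mouse 5 it was 0.27 (adjusted p = 0.451).

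None of the 3 receptor chains was called. Il1r1, the signalling receptor, held 1.86, 1.27 and 1.18 FPKM in the control retinas of mice 3, 4 and 6, and 2.12, 2.77 and 0.492 FPKM in their IOP retinas. In mice 1, 2 and 5 the control retinas held 1.13, 1.54 and 1.53 FPKM and the IOP retinas 2.52, 1.94 and 2.64 FPKM. In this gene 5 IOP retinas lay above all 6 control retinas and the IOP retina of mouse 6, the shallowest library, lay below them all. The difference was 0.30 ± 0.21 (95% interval -0.17 to 0.76, adjusted p = 0.385), and without that retina it was 0.50 (adjusted p = 0.0364). Without both retinas of mouse 6 it was 0.46 and not called (adjusted p = 0.0839), and without the IOP retina of mouse 4 it was 0.16.

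Il1rap, the shared accessory chain, ranged from 2.42 to 3.14 FPKM in control and from 1.9998 to 3.95 FPKM in IOP retinas. It was higher in the IOP eye of 4 of 6 mice, with a difference of 0.10 (95% interval -0.22 to 0.42, adjusted p = 0.687). Il1rl1, the IL-33 receptor ST2, ranged from 0.0250 to 0.152 FPKM in control and from 0 to 0.0953 FPKM in IOP retinas, which is an estimated 0 to 5.94 fragments in any retina. A difference in Il1rl1 was not detectable at this depth (-0.05, adjusted p = 0.424). Il33 and its receptor thus stood at opposite ends of the order of levels in both arms.

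**Figure D2:**
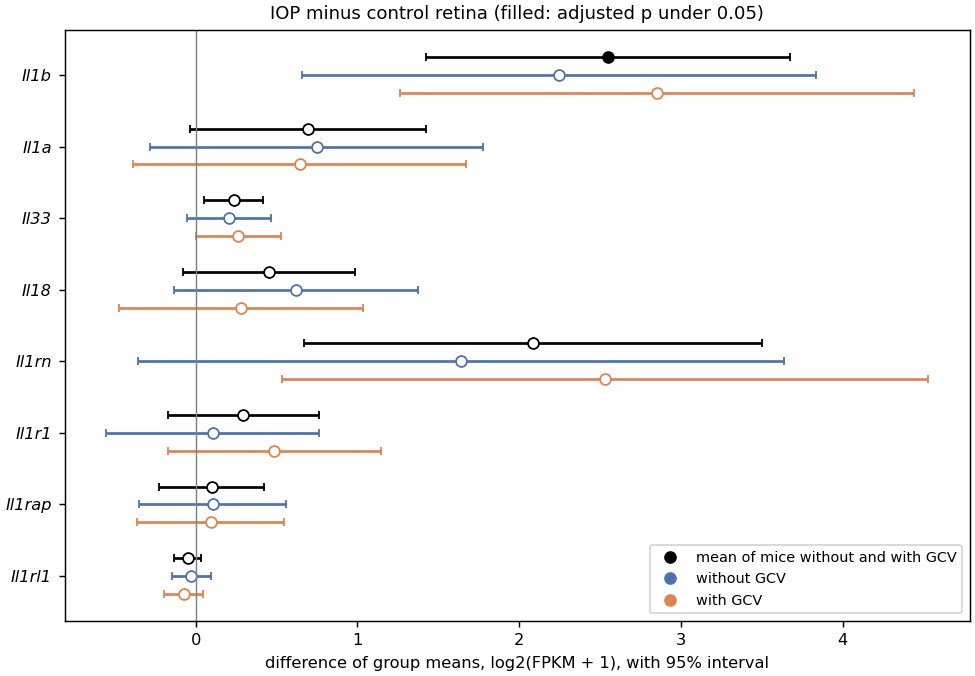
Difference between IOP and control retinas for each member on the log2(FPKM + 1) scale, with 95% intervals, for the mean of mice without and with GCV (black), mice without GCV (blue) and mice with GCV (orange). Filled points passed an adjusted p of 0.05 in the unpaired fit, which Il1b did at 2.55 over the 6 eye pairs. The intervals, also of that fit, overlap without and with GCV for every member.

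Within each treatment the groups of 3 gave wider intervals. Without GCV no member was called (0 of 8, against 1.65% of all genes). The Il1b difference was 2.25 (95% interval 0.66 to 3.84, adjusted p = 0.170), and Il1rn differed by 1.64 (adjusted p = 0.341), or by 0.95 without the IOP retina of mouse 6. With GCV no member was called either (0 of 8, against 1.8% of all genes). Il1b differed by 2.85 (95% interval 1.26 to 4.44, adjusted p = 0.0771) and Il1rn by 2.53 (adjusted p = 0.171), and without the IOP retina of mouse 5 these were 1.82 and 1.40. With the mouse as a block the values were 0.169 and 0.209 without GCV and 0.0970 and 0.0970 with GCV, as adjusted p of Il1b and Il1rn. At an unadjusted p under 0.05, limma gave 1 of 8 members (Il1b) without GCV, against 18.9% of all genes, and 3 of 8 (Il1b, Il1rn and Il33) with GCV, against 19.2%. The median over the 8 members was 0.41 without and 0.38 with GCV, against 0 and 0.00 over all genes. Over the 6 pairs that median was 0.37, against 0.01 for all genes.

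The study asked whether removal of p16Ink4a-expressing cells alters the response to IOP elevation, which for these genes is a comparison of the 2 responses. No gene of the whole table was called for the change of the response by GCV (0% of genes), and neither was any member. The Il1b response was larger with GCV by 0.60, with a 95% interval of -1.64 to 2.85, and that of Il1rn by 0.89 (-1.93 to 3.72). With the mouse as a block the intervals were -1.36 to 2.56 for Il1b and -0.85 to 2.63 for Il1rn, and both include 0. Without the IOP retina of mouse 5 the signs turned, to -0.42 for Il1b and -0.24 for Il1rn. For Il33 the interval was narrow, with a change of 0.06 (-0.31 to 0.43). At an unadjusted p under 0.05 there were 358 genes, none of them a member.

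GCV was also compared with no GCV in the same kind of eye, which sets different mice against each other. In IOP retinas 0% of genes were called and in control retinas 0%, with 774 and 295 genes at an unadjusted p under 0.05 and 0 members among them by limma. Among IOP retinas Il1b was higher with GCV by 0.89 (95% interval -0.70 to 2.48), Il1rn by 1.14 (-0.85 to 3.14) and Il33 by 0.15 (-0.11 to 0.41), all at an adjusted p of 0.819. Without the IOP retina of mouse 5 these differences were -0.13 for Il1b, 0.00941 for Il1rn and 0.0951 for Il33. In control retinas the differences were 0.29 for Il1b (-1.30 to 1.88), 0.25 for Il1rn (-1.75 to 2.25, and -0.0934 without the control retina of mouse 5) and 0.09 for Il33 (-0.17 to 0.35).

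**Figure D3:**
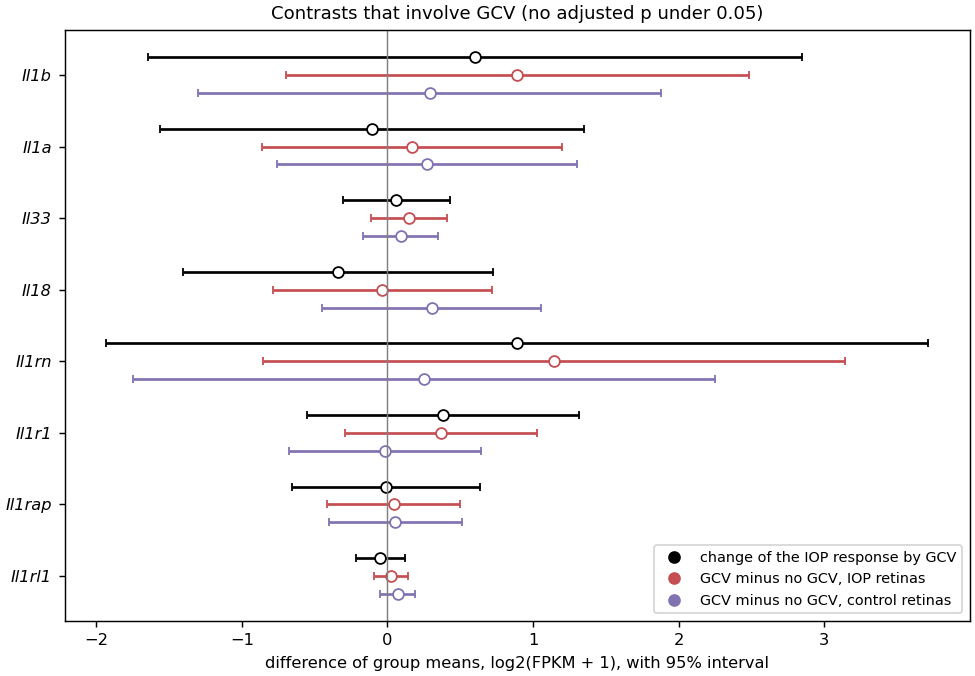
Contrasts that involve GCV for each member on the log2(FPKM + 1) scale with 95% intervals: the change of the IOP response by GCV (black), GCV against no GCV in IOP retinas (red) and in control retinas (purple). Every interval includes 0, and those of Il1b (-1.64 to 2.85) and Il1rn (-1.93 to 3.72) are the widest for the change of the response.

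The remaining genes of the IL-1 pathway were counted by 4 lists, which were chosen with earlier results of these data known. The counts are for the response over the 6 eye pairs, where 6.76% of all genes were called higher (4.83% with the mouse as a block). Of 11 other genes of the family with values, 2 were called higher and 0 lower, with a median difference of 0.08, and both encode soluble or decoy inhibitors. Il18bp, whose product binds IL-18, lay at 1.497 to 3.89 FPKM in control and, without overlap, at 6.81 to 12.9 FPKM in IOP retinas (1.47 ± 0.15, adjusted p = 0.000626). It was called without GCV (1.06, adjusted p = 0.0420) and with GCV (1.88, adjusted p = 0.00495). With the mouse as a block the call without GCV was lost (adjusted p = 0.160) and that with GCV held (adjusted p = 0.0439). Il1r2, the decoy receptor for IL-1, spanned 0 to 0.449 FPKM in control retinas and 0.388 to 4.46 FPKM after IOP elevation (1.34 ± 0.26, adjusted p = 0.0118). The call of Il1r2 was lost without both retinas of mouse 5. Il1rapl1, an accessory-like protein of neurons, averaged 0.396 ± 0.190 FPKM in control retinas and 0.110 ± 0.143 FPKM in IOP retinas (n = 6 each, adjusted p = 0.0744). Il1f9, the gene of IL-36γ, reached 12.3 FPKM in the IOP retina of mouse 5 and at most 1.68 FPKM in the other 11 retinas (adjusted p = 0.195). Il1f5 and Il1f10 were listed at 0 in every library.

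The level of Il18bp divided by that of its target Il18 was 0.192 to 0.736 in control retinas and 0.675 to 1.88 in IOP retinas, and it was higher in the IOP eye of each of the 6 mice.

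Of 15 genes for maturation and release of IL-1 cytokines, 7 were called higher and 0 lower, with a median of 0.38. Casp1, the protease that cuts the precursors of IL-1β and IL-18, spanned 0.0956 to 0.255 FPKM in control retinas and 1.51 to 6.10 FPKM in IOP retinas (1.69 ± 0.28, adjusted p = 0.00550). Pycard, the inflammasome adaptor ASC, lay at 0.327 to 0.726 FPKM and 1.47 to 5.15 FPKM (1.18 ± 0.21, adjusted p = 0.00761). Gsdmd, the pore protein gasdermin D, lay at 0.240 to 0.818 FPKM and 1.54 to 6.80 FPKM (1.19 ± 0.23, adjusted p = 0.0127). These 3 had the smallest adjusted p of the list. All 3 were higher in the IOP eye of each mouse (10.7% of all genes), without overlap of the arms (5.47% of all genes). The call of Gsdmd was lost without both retinas of mouse 6. Capn2 (0.07, adjusted p = 0.798) and Capn1 (-0.16, adjusted p = 0.620), calpains that can cut the IL-1α precursor and the most abundant genes of the list, were not called. With the mouse as a block 5 of the 15 were called, and the count was 3 to 8 when 1 retina was left out.

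Among 20 genes that signal from the receptors, 4 were called higher and 0 lower, with a median of 0.09. Myd88, the adaptor of IL-1 receptors, spanned 3.43 to 5.73 FPKM in control retinas and 5.86 to 21.6 FPKM in IOP retinas (1.13 ± 0.21, adjusted p = 0.0113). Rela, the p65 subunit of NF-κB, lay at 8.02 to 9.02 FPKM and 11.2 to 17.1 FPKM (0.62 ± 0.10, adjusted p = 0.00605). Irak4, the kinase that MyD88 binds, differed by 0.84 ± 0.23 (adjusted p = 0.0435). The fourth, Irak3, a kinase-dead inhibitor of the pathway that is named because it was called, differed by 1.67 ± 0.48 (adjusted p = 0.0478) and reached 19.8 FPKM in the IOP retina of mouse 5. Tollip and Tab2, the most abundant genes of the list, were not called (adjusted p = 0.0767 and 0.320). In the blocked fit 2 of the 20 were called (Myd88 and Rela), beside 4.83% of all genes called higher, and fits without 1 retina gave 2 to 5.

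Of 25 genes that IL-1 and NF-κB are known to induce, 10 were called higher and 1 lower, with a median of 0.66. In the blocked fit 8 of the 25 were called, and the calls of Icam1, Nfkbia and Zc3h12a were lost (adjusted p = 0.0800, 0.0707 and 0.0539). Bcl3, a coactivator of NF-κB, spanned 0.311 to 0.961 FPKM in control retinas and 10.2 to 59.9 FPKM in IOP retinas (4.04 ± 0.36, adjusted p = 0.000332). Socs3, an inhibitor of cytokine signalling, lay at 1.48 to 3.27 FPKM and 12.5 to 45.1 FPKM (2.79 ± 0.27). Ccl2, a chemokine for monocytes, lay at 0 to 0.455 FPKM and 3.86 to 19.2 FPKM (3.00 ± 0.32). By the mean over all 12 libraries the most abundant were the acute-phase genes Lcn2, at 9.58 to 23.8 FPKM and 90.2 to 646 FPKM (3.63 ± 0.42), and Saa3, at 0.358 to 3.99 FPKM and 17.4 to 4173 FPKM (5.80 ± 1.01, adjusted p = 0.00734). The rank of Saa3 rests on the IOP retina of mouse 5, without which its mean fell from 380.4 to 35.6 FPKM, under the 68.9 FPKM of Tnfaip3. The single gene called lower was Tnfaip3, which encodes the NF-κB inhibitor A20. It was chosen after its values were seen, was above Lcn2 and Saa3 in control retinas, and fell from 85.1 ± 5.53 FPKM in control to 46.5 ± 12.8 FPKM in IOP retinas (n = 6 each, -0.90 ± 0.15, adjusted p = 0.00609). These genes respond to many signals other than IL-1. No gene of the 4 lists was called for the change of the response by GCV, or for GCV against no GCV in IOP or control retinas.

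**Figure D4:**
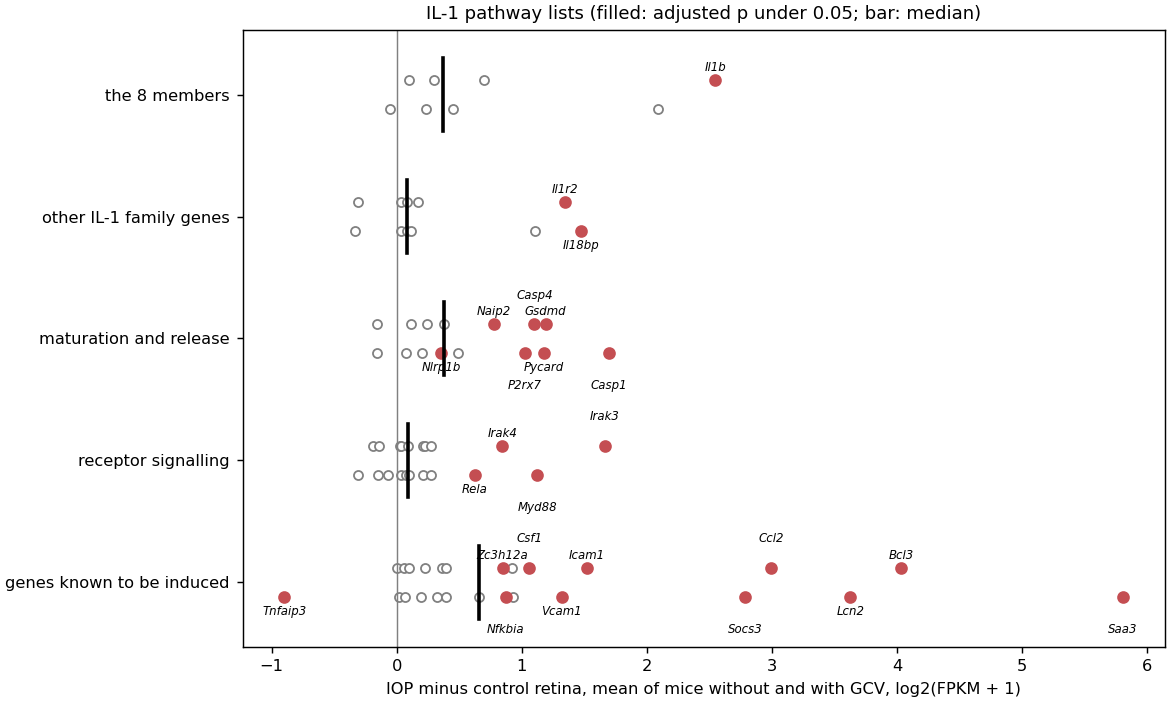
Difference between IOP and control retinas over the 6 eye pairs, on the log2(FPKM + 1) scale, for the members and the genes of the 4 lists. Filled points passed an adjusted p of 0.05 in the unpaired fit. Black bars are list medians, which ran from 0.08 for the other family genes to 0.66 for the genes known to be induced.

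Across the 12 libraries the 5 ligand and antagonist genes ran together, as a description over points that share mice and treatment. Pearson's r of log2(FPKM + 1) was 0.93 between Il1b and Il1rn, 0.84 between Il1b and Il1a and 0.89 between Il1a and Il1rn. Il18 had an r of 0.86 with Il1a, 0.82 with Il1rn and 0.70 with Il1b, and Il33 had an r of 0.81 with Il1rn, 0.74 with Il1b, 0.73 with Il1a and 0.68 with Il18. Il1r1 stood apart, at 0.39 with Il1b and 0.18 with Il1rn. Il1rap had an r of 0.62 with Il1b, 0.59 with Il1rn and 0.51 with Il1a. With Il18, Il33 and Il1r1 its r was 0.32, 0.22 and -0.05. Among 12904 other genes whose mean reached 1 FPKM, those most like Il1b were Il10ra (0.98), Ncf1 (0.98) and Saa3 (0.98), the first a receptor chain for IL-10 and the second a subunit of the phagocyte NADPH oxidase. Most like Il1rn were Ccl9 (0.97), Pirb (0.96) and Pstpip1 (0.96). For Il1a these were Il1f9 (0.98), Ccdc43 (0.97) and Nampt (0.96). Il1f9 reached a mean of 1 FPKM only through the IOP retina of mouse 5 (1.39 FPKM with it, 0.400 FPKM without it). Il1a was highest in that retina too (4.53 FPKM), and r without it was not examined. The genes most like Il33 were Armc9 (0.93), Prorsd1 (0.92) and Ltbr (0.91), and those most like Il18 were Cyp20a1 (0.93), Tma16 (0.91) and Pgd (0.91). For Il1r1 they included Rnf135 (0.94) and Acox3 (0.92), and for Il1rap they were Snx30 (0.91), Zfp81 (0.88) and Pkd2 (0.87).

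Markers of myeloid cells moved with Il1b and Il1rn. The 7 monocyte and macrophage markers summed to 10.3 to 46.4 FPKM in control and 156.0 to 2181 FPKM in IOP retinas, and 7 of 7 were called higher, among them Chil3, which was at 0 in every control retina. The 7 microglial markers summed to 37.0 to 45.7 FPKM and 65.4 to 170.9 FPKM, with 5 called higher. For neutrophils 6 of 7 markers had values, all but Ly6g, and they summed to 0.879 to 16.9 FPKM and 15.2 to 387 FPKM. The 2 called higher, S100a8 and S100a9, made up most of the sum (267 and 107 FPKM in the IOP retina of mouse 5). Cxcr2, Mmp8, Retnlg and Camp were not called (adjusted p = 0.0821 to 0.450, limma). In the IOP retina of mouse 5, where Il1b, Il1rn and Il1a were highest, the neutrophil sum (387 FPKM), the monocyte sum (2181 FPKM) and the microglial sum (170.9 FPKM) were highest as well. The control retinas with most Il1rn, those of mice 5 and 6, had the highest monocyte sums among controls (23.4 and 46.4 FPKM). Of these sums Lyz2 made up 19.1 and 40.1 FPKM. Ms4a7 was also highest in these controls (0.785 and 1.67 FPKM). In the control retina of mouse 5 Ccr2, Plac8 and Fn1 lay within the range of the other controls. There Ly6c2 and Chil3 were at 0. T, NK and mast cell markers summed to at most 0.597 FPKM in control and 1.60 FPKM in IOP retinas, and 1 of 7 was called higher (Nkg7, at 0 in every control retina).

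Markers of Müller glia, the cells known for Il33, summed to 1104 to 1532 FPKM in control and 666 to 1022 FPKM in IOP retinas. Glul made up most of the control sums (815 to 1119 FPKM, and 184 to 602 FPKM in IOP retinas). Glul and Rlbp1 were the 2 called lower and Vim the 1 called higher, while Slc1a3, Aqp4 and Sox9 were not called. Lens markers varied from 2.39 to 4288 FPKM in control and from 41.3 to 3130 FPKM in IOP retinas, with 3 of 5 called higher. The part of these tissues and cells in the levels of the members was not tested.

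**Figure D5:**
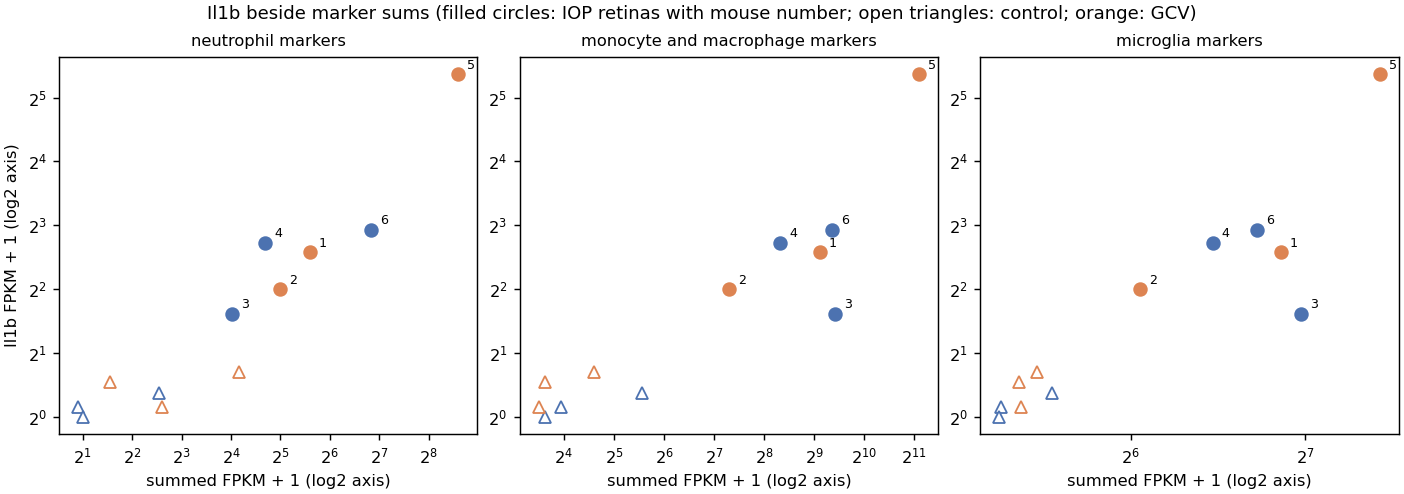
Il1b level (FPKM + 1, log2 axis) of each retina against the summed level of neutrophil, monocyte and macrophage, and microglial markers (FPKM + 1, log2 axis). Filled circles are IOP retinas with their mouse number, open triangles are control retinas, and orange marks GCV. The IOP retina of mouse 5, with 40.3 FPKM of Il1b, is at the upper right of each panel.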

How the data were processed

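Stranded mRNA libraries of 12 retinas, a pair from each of 6 p16-3MR mice, had been sequenced with paired 50-base reads. The submitters' processing notes name TopHat2, Bowtie2, Cufflinks and Cuffdiff on mm10, while the study's methods name HOMER counting on exons of RefSeq genes. Which of them made the table is not given in the sources used here. The authors deposited FPKM values for 24340 genes. The unit is not stated and was taken from the values. Depth was estimated from low values of 1904 genes with 1 transcript of at least 1500 bases, as the library size at which they came closest to whole fragments, with 160 bases subtracted from each length by the same criterion. At that size 83.3% to 87.4% of 215 to 286 values per library lay within 0.2 of a whole number, a share that the choice of size itself raised. Estimated depth was 3990000 to 9010000 fragments per library, so values under 1 FPKM rest on few fragments.

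The fit used limma 3.58.1 (R 4.3.3) on log2(FPKM + 1), with 4 group means over all 12 libraries, a variance trend and Benjamini-Hochberg adjustment over 18509 genes above 0. Genes under an adjusted p of 0.05 were called. The mouse pairs its eyes, since both come from the same animal, and was used as a block in an alternative (correlation of deviations within a mouse -0.117 to 0.388). Also tried were a filter of 1 FPKM in 3 libraries, a pseudocount of 0.1, other scalings, other thresholds, and libraries or mice left out. The calling was also run on simulated data with independent noise and the same spread in every group. Those data lack the unequal spread, outlying retinas and shared mice of the real ones, so that run does not measure how the calling performs here. The members and lists were chosen with earlier results of these data known. Named genes are the members and, per list, the 3 with the smallest adjusted p and the 2 most abundant. Also named are the 3 genes most correlated with each member of at least 0.5 FPKM in a group, except for a gene that is not reported here. Sequences are from RefSeq, and figures were drawn with matplotlib 3.10.9 in Python 3.11.15.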

Additional observations from a re-analysis of the deposited data

Results flagged for a closer look

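In each arm of 6 retinas the highest and the lowest value of each member were compared with the nearest other value, as a share of the whole range, against Dixon's critical value at 95%. On the FPKM scale 4 of 16 sets of 6 values passed it, where chance gives about 1 in 20 for independent, normally distributed values. These sets share retinas, and on the log2(FPKM + 1) scale of the fits 2 of the 4 passed (Il1b and Il1r1), with ratios of 0.58 for Il1a and 0.49 for Il1rn under the critical value. The IOP retina of mouse 5, a GCV mouse, stood out as high in 3 of the 4. It held 40.3 FPKM of Il1b, with the next highest IOP retina at 6.62 FPKM, 45.5 FPKM of Il1rn, with the next at 10.3 FPKM, and 4.53 FPKM of Il1a, with the next at 1.33 FPKM. The IOP retina of mouse 6 stood out as low, at 0.492 FPKM of Il1r1, with the next lowest at 1.94 FPKM. That library was also the shallowest.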

How the results depend on the processing

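Of 778 values of single members under an alternative, 714 kept their direction and their side of the threshold, 12 passed it anew, 1 lost it and 51 changed sign, all of these without a call. The number of members called over the 6 eye pairs was 2 (Il1b and Il1rn) with a pseudocount of 0.1 FPKM, with the filter on low values and with the mouse as replicate block. It was 3 (with Il33) at an adjusted p under 0.1 and at an unadjusted p under 0.05, 0 without both retinas of mouse 6 (chosen after seeing the data), and 1 to 3 without 1 retina. Without GCV it was 1 (Il1b) with a pseudocount of 0.1 FPKM, with the 2 groups alone and at an unadjusted p under 0.05. With GCV it was 1 (Il1b) with that pseudocount, the filter or an adjusted p under 0.1, 3 at an unadjusted p under 0.05, and 0 to 1 without 1 retina. The other family genes called numbered 4 at an unadjusted p under 0.05 and 1 without mouse 5. Maturation genes called numbered 3 without mouse 6 and 3 to 8 without 1 retina, and signalling genes 2 with the replicate block or without mouse 6 and 2 to 5 without 1 retina. The block changed no other call of a member. All genes called over the 6 pairs numbered 2258, and 1351 with the block, 4131 at an adjusted p under 0.1, 5611 at an unadjusted p under 0.05, 777 without mouse 5, 948 without mouse 6 and 830 to 4515 without 1 retina. Those called without GCV numbered 306, and 23 to 3501 over the alternatives, and with GCV 334, and 67 to 3547.

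Log2 differences that changed sign were these. Without mouse 6, Il1rap without GCV was -0.0146, and the changes of the response by GCV were 0.0767 for Il1a and 0.107 for Il1rap. The change for Il1b was -0.14 with a pseudocount of 0.1 FPKM and -0.30 without mouse 5. Without 1 retina, the differences without GCV ran from -0.16 to 0.51 for Il1r1, from -0.00564 to 0.31 for Il1rap and from -0.0528 to 0.0165 for Il1rl1. With GCV they ran from -0.0537 to 1.02 for Il1a, from -0.0426 to 0.20 for Il1rap and from -0.0859 to 0.49 for Il18, each negative without the IOP retina of mouse 5. The changes of the response by GCV ran from -0.80 to 0.27 for Il1a, -0.42 to 1.26 for Il1b, -0.24 to 1.58 for Il1rn, -0.0193 to 0.65 for Il1r1, -0.22 to 0.0983 for Il1rap and -0.0575 to 0.14 for Il33. For GCV against no GCV in IOP retinas, Il1a was -0.0416 with a pseudocount of 0.1 FPKM and Il1rap -0.0141 with quantile normalization. Without mouse 5, Il1a was -0.53, Il1b -0.13 and Il1rap -0.0923, and without mouse 6, Il1r1 was -0.0352, Il18 0.11 and Il1rl1 -0.00764. Without 1 retina these ran from -0.53 to 0.55 for Il1a, -0.13 to 1.55 for Il1b, -0.0352 to 0.63 for Il1r1, -0.16 to 0.15 for Il1rap, -0.40 to 0.17 for Il18 and -0.00764 to 0.0482 for Il1rl1. In control retinas Il1rn was -0.0934 without mouse 5, and without 1 retina Il1rn ran from -0.0934 to 0.63 and Il1r1 from -0.0915 to 0.10. Beyond fewer libraries or genes in a fit, the cause was not tested. At this depth Il1rl1, and Il1a and Il1b in control retinas, rest on a few fragments.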
